A study of Mus musculus with 4 samples.

Results

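The genes described here are 10 secretory and surface protein genes of the epididymal epithelium, measured in mouse epididymal adipose tissue. They are the lipocalin genes Lcn5, Lcn8 and Lcn9, the ribonuclease A family genes Rnase9, Rnase10 and Rnase12, and Adam7, Cst11, Gpx5 and Cuzd1. They were chosen by name as markers of different segments of the epididymis, and all 10 were among the 18820 genes read on the arrays. Each was read by 1 probe set, so no choice between probe sets bears on them.

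The epididymis is the coiled duct in which sperm mature after leaving the testis, and the fat pad profiled here lies against it. Its epithelium is divided into an initial segment, caput, corpus and cauda, and each segment secretes its own mixture of proteins into the lumen, largely under control of androgens and of factors carried from the testis. Lipocalins carry small lipophilic molecules, the epididymal members of the ribonuclease A family are secreted proteins of the same fold as pancreatic ribonuclease, and several of these genes lie side by side in clusters.

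RNA of 4 to 6 mice per group was pooled before hybridization, and 4 arrays were made. One array held wild type C57BL/6 mice whose low-fat diet had 10 kcal% fat (WT-LF). One held wild type C57BL/6 mice whose high-fat diet had 45 kcal% fat (WT-HF). The other 2 arrays held CD1d-/- C57BL/6 mice on the low-fat diet (KO-1 and KO-2, drawn as KO array 1 and KO array 2). CD1d presents lipid antigens to natural killer T cells, which mice with this germline deletion lack. The KO line had been crossed back to C57BL/6J for 10 to 12 generations, all mice ate chow until an age of 10 to 11 weeks, and the diets then ran for 18 to 19 weeks. Nothing in the labels tells if KO-1 and KO-2 came from separate pools of mice, so spreads and p-values measure only the difference between these arrays, which may be technical. Wild type values have no replicate.

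Levels are log2 intensities of a probe set, and differences are on that log2 scale unless given as a fold. The median level over the 18820 genes was 6.37 on the WT-LF array, 6.42 on the WT-HF array, 6.21 on KO-1 and 6.31 on KO-2. A level below the median of its array is called low here, and a fold against a low level is read as a lower bound. Cd1d1, the gene targeted in the KO mice, was at 11.80 on both wild type arrays and at 3.74 and 3.98 on KO-1 and KO-2. The 9 adipocyte markers measured were above the median on all 4 arrays, with Adipoq, which encodes adiponectin, between 13.03 and 13.19.

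The genes divided into 5 that were high on at least one array, called genes with signal here, and 5 that were low throughout. Lcn5, Rnase9, Rnase12, Adam7 and Cuzd1 were above the median on the WT-LF array, at 8.53 to 11.34. Lcn8, Lcn9, Rnase10, Cst11 and Gpx5 were low on all 4 arrays, at 3.54 to 5.22. Each gene of the second set stayed within a range of 0.16 to 0.50 over the 4 arrays, against 4.81 to 7.02 for the first set. On the WT-HF array and on KO-1 all 10 genes were low, while on KO-2 the genes Rnase12, Adam7 and Cuzd1 were above the median.

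**Figure D1:**
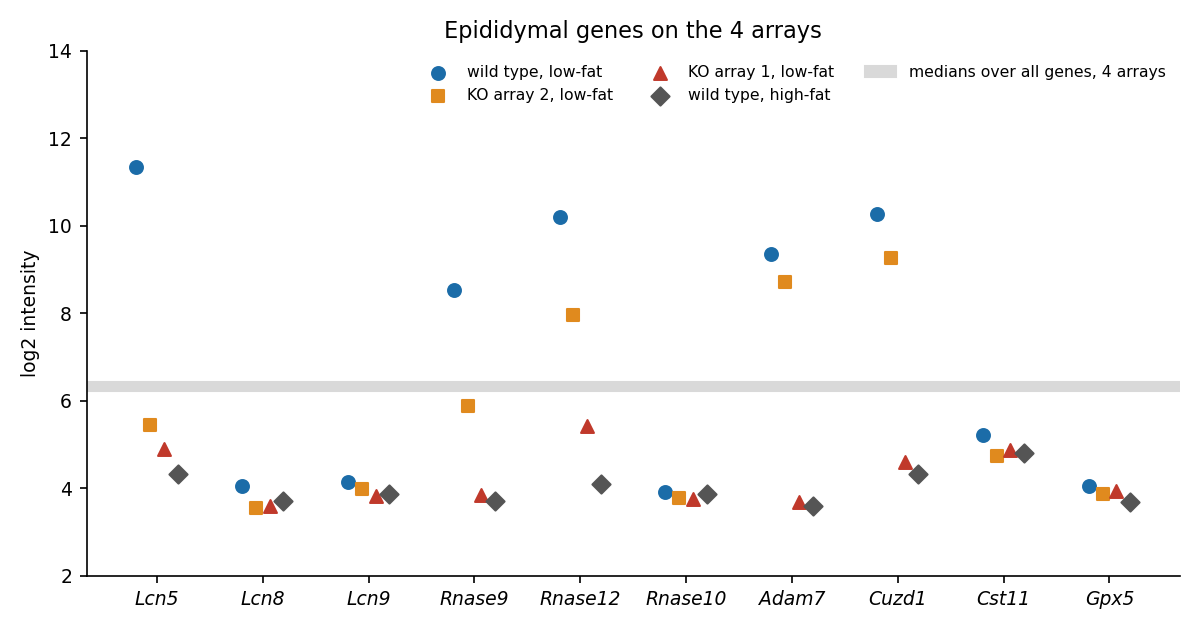
Log2 intensity (vertical axis) of the 10 epididymal genes on each of the 4 arrays, 1 point per array, with the grey band spanning the array medians over all genes, 6.21 to 6.42. Lcn5, Rnase9, Rnase12, Adam7 and Cuzd1 are above the band on the WT-LF array, the other 5 genes are below it on every array. For the first 5, KO-2 lies between the WT-LF array and KO-1.

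Lcn5 (probe set 10470149, Entrez gene 13863) encodes a retinoic acid-binding lipocalin secreted by the caput. Its level was 11.34 on the WT-LF array, 4.32 on the WT-HF array, 4.89 on KO-1 and 5.45 on KO-2 (KO mean 5.17 ± 0.39, SD, n = 2). The WT-LF array stood alone, and the other 3 arrays were low and near one another. The KO mean differed from WT-LF by −6.17 (standard error 0.37), at least 72.1-fold, with lower values on 2 of 2 KO arrays. The adjusted p in limma was 0.0193 over 11292 genes and 0.276, not past the threshold, over all 18820 genes with no filter on low signal. The call is thus lost without the filter, and it rests on 1 WT-LF array. Over 7 settings in which Lcn5 was tested its adjusted p in limma ran from 0.00491 to 0.276. Lcn5 had passed the filter on mean level only through its WT-LF value.

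Lcn8 (probe set 10470141, Entrez gene 78076), a lipocalin gene of the initial segment, lies next to Lcn5 on chromosome 2. It was at 4.04 on the WT-LF array, 3.72 on the WT-HF array, 3.60 on KO-1 and 3.54 on KO-2. Lcn9 (probe set 10470206, Entrez gene 77704), a further epididymal lipocalin gene, was at 4.13, 3.87, 3.82 and 3.98 on those arrays. Neither gene stood high among all genes on any array: the highest percentile was 14.3 for Lcn8 and 16.2 for Lcn9, both on the WT-LF array. Neither showed the signal of Lcn5.

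The stretch of chromosome 2 from Lcn15 to Lcn9 holds 12 protein-coding genes in the RefSeq order of assembly GRCm38.p6, of which 11 were measured. Besides Lcn5, only Bmyc, a Myc family gene named here after its values were seen, was above the median on the WT-LF array, at 8.76, and it was between 8.48 and 8.83 on all arrays. The epididymal lipocalin genes Lcn6 and Lcn10, next to Lcn5 on its other side, were at 3.76 to 3.91 and 4.19 to 4.34. Obp2a, Obp2b, Lcn3 and Lcn11 were low on all 4 arrays as well. Lcn5 was the single gene of the stretch with a 2-fold difference between the wild type arrays. The 250 bases before the annotated start of Lcn5 (chr2:25657702-25657951, plus strand) and of Lcn8 (chr2:25652868-25653117, plus strand), from the RefSeq promoter table of GRCm38.p6, are shown because these adjacent genes differed in signal. Capitals mark matches to the motifs searched.

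Lcn5: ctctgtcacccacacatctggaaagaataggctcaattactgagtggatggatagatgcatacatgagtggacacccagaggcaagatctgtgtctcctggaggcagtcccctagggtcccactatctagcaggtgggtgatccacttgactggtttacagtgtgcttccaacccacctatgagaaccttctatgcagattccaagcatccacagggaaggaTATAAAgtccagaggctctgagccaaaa
Lcn8: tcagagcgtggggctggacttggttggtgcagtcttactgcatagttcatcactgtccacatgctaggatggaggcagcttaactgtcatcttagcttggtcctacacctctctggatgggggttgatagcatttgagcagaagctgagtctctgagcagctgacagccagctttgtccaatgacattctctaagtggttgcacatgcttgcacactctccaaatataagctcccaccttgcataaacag

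The capitals in Lcn5 are TATAAA, the TATA box core, on the strand of the gene and 28 to 23 bases before its start. The window of Lcn8 holds no exact match to the 4 motifs searched. It does hold tataag near its end, which differs from TATAAA in its last base, and variants were not searched. These were the TATA box core TATAAA, the half-site of androgen and glucocorticoid receptors AGAACA, the forkhead core TGTTTAC and the ETS core AGGAAG, each searched on both strands and none contained in another. Over all 32851 promoter windows of 250 bases, 12.4% held TATAAA, 16.1% AGAACA, 3.17% TGTTTAC and 29.5% AGGAAG. A match is a description of the letters and not evidence of binding.

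Rnase9 and Rnase12 differed between the KO arrays, where Lcn5 did not by as much. Rnase9 (probe set 10419553, Entrez gene 328401) was at 8.53 on the WT-LF array, 3.72 on the WT-HF array, 3.84 on KO-1 and 5.88 on KO-2 (KO mean 4.86 ± 1.44, SD, n = 2). It was low on every array but WT-LF, and KO-2 lay between WT-LF and the other pair. Rnase12 (probe set 10419559, Entrez gene 497106) was at 10.21, 4.10, 5.42 and 7.95 on those arrays (KO mean 6.69 ± 1.79). Its 4 values were all separated by more than 2-fold, in the order WT-LF, KO-2, KO-1, WT-HF.

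In limma, the difference of KO from WT-LF was −3.67 for Rnase9 (standard error 0.81) and −3.52 for Rnase12 (standard error 0.97). Both were lower on 2 of 2 KO arrays, and both had an adjusted p = 1 in limma. Rnase10 (probe set 10414533, Entrez gene 75019), which encodes a ribonuclease A family protein of the proximal epididymis, was at 3.92, 3.88, 3.76 and 3.78 on the WT-LF array, the WT-HF array, KO-1 and KO-2. Its whole range, 0.16, was the smallest of the 10 genes.

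These 3 genes lie in one cluster on chromosome 14, in the order Rnase10, Rnase9, Rnase11 and Rnase12. Rnase11, an epididymal member of the family that sits between Rnase9 and Rnase12, was at 5.77, 4.98, 5.10 and 5.99 on those arrays, below the median on each. Rnase6, a ribonuclease gene of macrophages further along, was above the median throughout, at 7.21 to 7.45, and Rnase1 was at 6.12 on KO-1 against 4.53 to 4.68 on the others. Eddm3b, an epididymal gene of the same stretch named after its values were seen, was at 7.31 on the WT-LF array, 4.23 on the WT-HF array, 5.68 on KO-1 and 5.64 on KO-2. Levels of neighbouring genes in the cluster thus ran from low on all arrays to strongly different between them. The promoter windows of Rnase10 (chr14:51007679-51007928, plus strand), Rnase9 (chr14:51041868-51042117, minus strand) and Rnase12 (chr14:51057243-51057492, minus strand) are shown for that contrast, each 5′ to 3′ on the strand of its gene.

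Rnase10: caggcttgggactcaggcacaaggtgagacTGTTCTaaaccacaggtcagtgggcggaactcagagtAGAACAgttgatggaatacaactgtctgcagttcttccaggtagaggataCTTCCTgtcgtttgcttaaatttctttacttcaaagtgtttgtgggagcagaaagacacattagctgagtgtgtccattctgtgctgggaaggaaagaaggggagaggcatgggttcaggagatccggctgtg
Rnase9: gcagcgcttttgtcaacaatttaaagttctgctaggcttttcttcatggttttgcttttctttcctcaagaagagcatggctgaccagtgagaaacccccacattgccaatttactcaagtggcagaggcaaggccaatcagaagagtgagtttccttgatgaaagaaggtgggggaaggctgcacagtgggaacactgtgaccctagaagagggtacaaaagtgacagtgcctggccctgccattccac
Rnase12: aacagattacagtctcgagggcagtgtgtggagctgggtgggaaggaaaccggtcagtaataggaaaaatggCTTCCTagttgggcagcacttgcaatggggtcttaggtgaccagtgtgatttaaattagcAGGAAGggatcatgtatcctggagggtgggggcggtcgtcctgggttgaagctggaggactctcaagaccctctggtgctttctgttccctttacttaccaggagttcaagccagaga

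The capitals in Rnase10, shown for one of its annotated starts, are TGTTCT and AGAACA, the 2 orientations of the receptor half-site, and CTTCCT, the reverse of the ETS core. In Rnase12 they are CTTCCT and AGGAAG, and Rnase9 holds no match. No motif was matched in more than 1 of the windows of Lcn5, Rnase9, Rnase12 and Cuzd1, the genes at least 2-fold lower than on WT-LF on all 3 other arrays. Promoter windows were found for 8 of the 10 genes, in 9 windows, of which 1 held TATAAA, 3 AGAACA, 0 TGTTTAC and 2 AGGAAG. The AGAACA matches were in both windows of Rnase10, which overlap and share the TGTTCT, and in the window of Lcn9. Rnase10 and Lcn9 were low on all arrays.

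**Figure D2:**
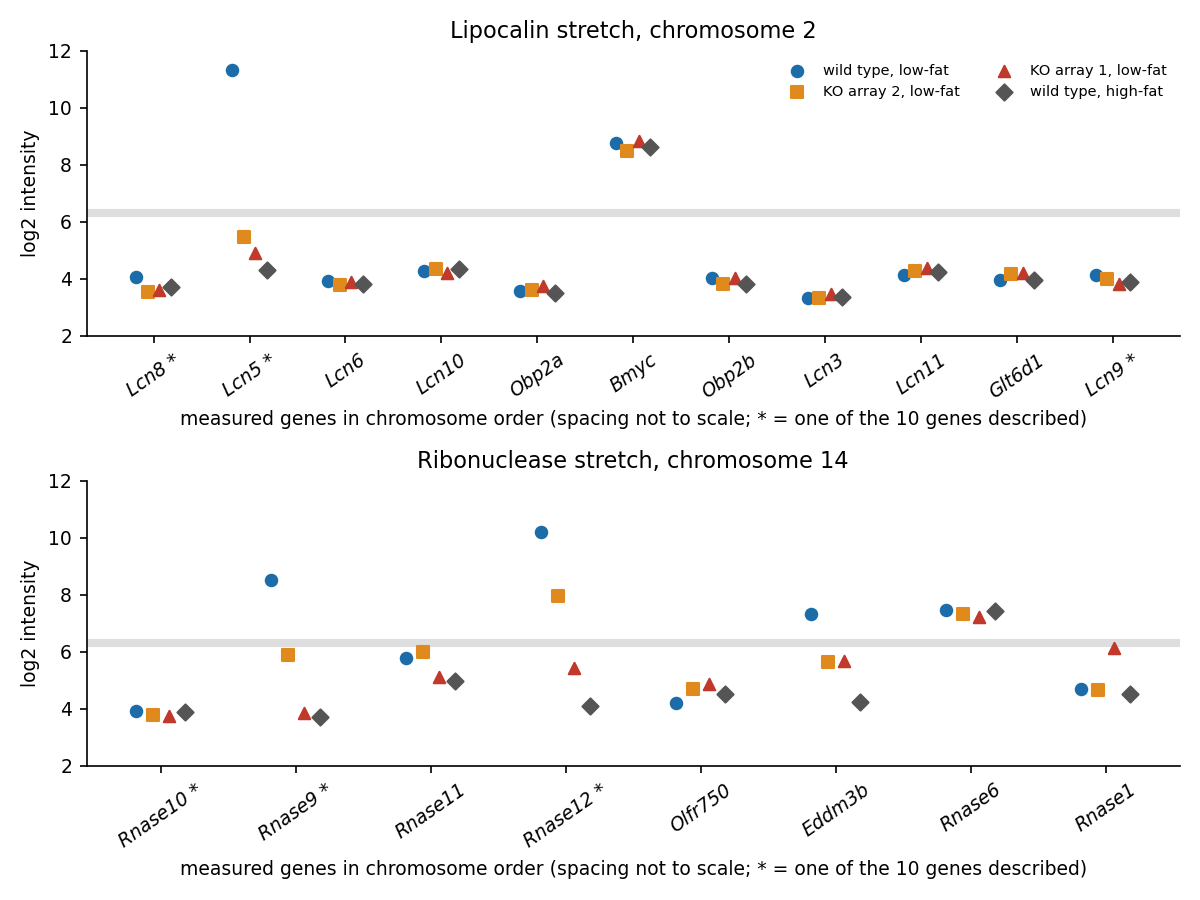
Log2 intensity (vertical axis) of the measured protein-coding genes of the lipocalin stretch on chromosome 2 (top) and the ribonuclease stretch on chromosome 14 (bottom), in chromosome order, 1 point per array, with the grey band at the array medians (6.21 to 6.42) and stars at genes of the 10. In the lipocalin stretch only Lcn5 separates the arrays by 2-fold, and in the ribonuclease stretch Rnase9, Rnase12 and Eddm3b separate the WT-LF from the WT-HF array.

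Adam7 (probe set 10421106, Entrez gene 11500) encodes a membrane protein of the ADAM family that epididymal cells pass to sperm. It was at 9.35 on the WT-LF array, 3.60 on the WT-HF array, 3.68 on KO-1 and 8.71 on KO-2 (KO mean 6.19 ± 3.56, SD, n = 2). KO-2 lay with the WT-LF array and KO-1 with the WT-HF array, so that the groups by genotype overlapped. The single WT-HF array was the lowest, by 0.07 below KO-1. Cuzd1 (probe set 10568502, Entrez gene 16433), which encodes a protein with CUB and zona pellucida domains that is also made in pancreas and uterus, gave the same picture, at 10.27, 4.32, 4.60 and 9.26 (KO mean 6.93 ± 3.29). Of 10 exocrine pancreas markers, 7 were measured and only Cela1 was above the median on any array, at 6.33 to 7.12.

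For Adam7 and Cuzd1 the KO mean describes neither KO array. In limma, the difference of KO from WT-LF was −3.15 for Adam7 with a standard error of 1.87, and −3.34 for Cuzd1 with a standard error of 1.73, each with an adjusted p = 1. Without KO-1 the Adam7 difference was −0.63, and without KO-2 it was −5.67. For Cuzd1 these values were −1.01 and −5.67. The neighbours of Adam7, the ADAM family genes Adamdec1 and Adam28, were low on all arrays, at 4.01 to 4.44 and 4.22 to 4.48. The window before the start of Cuzd1 (chr7:131322293-131322542, minus strand), shown as the one available for this pair, holds none of the 4 motifs.

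Cuzd1: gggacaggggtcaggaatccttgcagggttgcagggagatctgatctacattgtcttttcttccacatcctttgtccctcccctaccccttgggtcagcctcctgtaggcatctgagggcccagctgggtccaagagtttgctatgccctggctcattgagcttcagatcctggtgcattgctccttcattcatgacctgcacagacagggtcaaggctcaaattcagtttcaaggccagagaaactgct

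Cst11 and Gpx5 complete the set without signal. Cst11 (probe set 10488404, Entrez gene 78240), an epididymal cystatin gene, was at 5.22 on the WT-LF array, 4.81 on the WT-HF array, 4.88 on KO-1 and 4.73 on KO-2. Gpx5 (probe set 10407999, Entrez gene 14780), which encodes the glutathione peroxidase secreted by the caput to protect sperm from peroxides, was at 4.06, 3.69, 3.94 and 3.86. Both had their highest value on the WT-LF array, but by no more than 0.49 over any other array. Lcn8, Lcn9 and Rnase10 also had their highest value there. A caput gene without signal (Gpx5) and a caput gene with signal (Lcn5) were thus measured on one array. Whether RNA of these 5 genes was missing or their probe sets responded poorly was not tested.

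The first comparison asked how the genes differed between the diets in wild type tissue, with 1 array each and no test. Of the 10 genes, 5 were lower on WT-HF by at least 2-fold and 0 higher, and 1.16% of all 18820 genes were at least that much lower. The differences were −7.02 for Lcn5, −6.11 for Rnase12, −5.95 for Cuzd1, −5.74 for Adam7 and −4.81 for Rnase9. The intensity on the WT-HF array was between 0.771% (Lcn5) and 3.56% (Rnase9) of the WT-LF intensity. These are upper bounds, since each of these genes was low there. The remaining 5 genes differed by −0.42 (Cst11) to −0.04 (Rnase10), inside the range of −0.66 to 0.83 that held the central 95% of all genes. The median of the 10 was −2.61, against 0.01 over all genes. In bulk tissue, fewer epididymal cells in a sample and less RNA of these genes per cell cannot be told apart.

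The second comparison asked how the genes differed between KO and wild type tissue on the low-fat diet. KO-1 had 5 of 10 genes at least 2-fold lower, where 0.638% of all genes were, and KO-2 had 4 of 10, where 0.792% were. On both KO arrays 4 genes were lower (0.266% of all genes): Lcn5, Rnase9, Rnase12 and Cuzd1. The Cuzd1 difference on KO-2, −1.01, was past 2-fold by a narrow margin and not past it with the arrays centred on their medians, which left 3 genes. Because both comparisons use the same WT-LF array, which was the highest array for all 10 genes, their differences are not independent of each other.

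KO-1 was closer to the WT-HF array than to the other KO array for Rnase9, Rnase12, Adam7 and Cuzd1. Relative to the WT-LF intensity, KO-1 had at most 1.14% for Lcn5, 3.87% for Rnase9, 3.63% for Rnase12, 1.96% for Adam7 and 1.97% for Cuzd1. These are upper bounds, since these genes were low on KO-1. KO-2 had at most 1.68% for Lcn5 and 15.9% for Rnase9, both low there. It had 20.9% for Rnase12, 64.4% for Adam7 and 49.5% for Cuzd1. The values on KO-2 were uneven between genes: Adam7 was within the central 95% of differences of all genes from the WT-LF array (−0.66 to 0.75), while Lcn5 had rank 5 from the lowest of 18820. Between the KO arrays, Adam7 was at least 32.8-fold higher on KO-2, Cuzd1 at least 25.2-fold, Rnase12 at least 5.76-fold and Rnase9, low on both, 2.04 higher on the log2 scale. Those 4 of 10 genes were at least 2-fold higher on KO-2, against 2.68% of all genes, while Lcn5 was 0.55 higher, inside the central 95% of all genes (−0.70 to 1.02). These are single arrays of one group, so the difference has no test.

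In limma, 5 of the 10 genes passed the filter on mean level, each only because of its values where it was high, so their count is not support for a difference. One of these 5, Lcn5, was called lower in KO than in WT-LF (0.0443% of tested genes were) and 0 were called higher (0%). With no filter, limma called 0 of 10 in either direction (0% of 18820 genes), and 3 of 10 (Lcn5, Rnase9 and Rnase12) had an unadjusted p under 0.05 against 119 lower and 163 higher over all genes. The spread in this fit comes from the KO pair, and the same spread was taken for WT-LF and WT-HF.

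**Figure D3:**
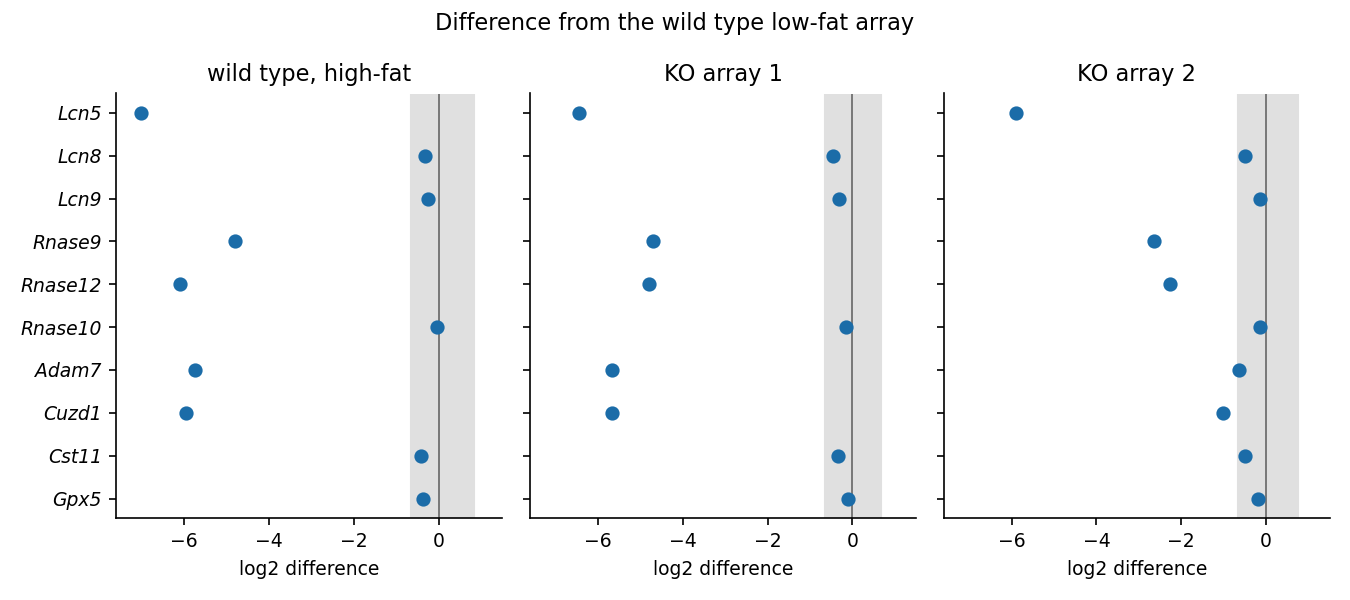
Difference in log2 intensity (horizontal axis) of each of the 10 genes from the WT-LF array, for the WT-HF array, KO-1 and KO-2, with the grey band holding the central 95% of all 18820 genes. On the first 2 panels 5 genes lie at −4.69 or below, on the KO-2 panel they spread from −5.89 (Lcn5) to −0.63 (Adam7), and the other 5 genes lie inside the band in every panel.

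A further comparison set the KO arrays against the WT-HF array, where genotype and diet both differ. KO-1 was at least 2-fold higher for 1 of 10 genes, Rnase12 (1.32 higher on the log2 scale), where 1.72% of all genes were. KO-2 was at least 2-fold higher for 5 of 10, where 0.84% of all genes were, from 1.13 on the log2 scale for Lcn5 to 5.11 for Adam7. Over the 5 genes tested, limma called 0 lower (0.00886% of tested genes, 1 gene in all) and 0 higher (0%), each with an adjusted p = 0.999, and 1 of 5 (Rnase12) had an unadjusted p under 0.05, against 41 lower and 86 higher over all tested genes. With no filter limma called 0 of 10 in either direction (0% of genes), with 0 of 10 at an unadjusted p under 0.05 against 108 lower and 215 higher over all genes. The order of levels for each of the 5 genes with signal was WT-LF, KO-2, KO-1 and WT-HF. The last 2 of that order were within 0.57 of each other for Lcn5, Rnase9, Adam7 and Cuzd1, inside the central 95% of all genes (−1.13 to 0.85), and only Rnase12, 1.32 apart, lay outside it.

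Many markers of duct epithelium were, like the 5 genes, lower on WT-HF, but none was 2-fold lower on KO-1. Of 15 markers of epididymal and duct epithelium, among them Krt8, Krt18, Krt19 and the duct transcription factor gene Pax8, 6 were above the median on the WT-LF array, 3 on the WT-HF array, 10 on KO-1 and 5 on KO-2. Their summed linear intensity was 1782, 808, 2813 and 1281 on those arrays, and none was listed at 0. The sum is led by Krt8, and Krt19 also stands in the list of mesothelial genes. On WT-HF 8 of the 15 were at least 2-fold lower than on WT-LF and 0 higher, where 1.16% of all genes were lower. On KO-1 0 were lower and 1, Pax8, was higher (0.84% of all genes), with a median of 0.56, and on KO-2 0 passed 2-fold either way, with a median of −0.38. Krt8 was at 8.76, 7.48, 9.36 and 8.38, and Pax8 at 7.36, 5.42, 8.73 and 6.65. KO-1, where all 10 epididymal genes were low, thus had the highest level of both. Wfdc2, Foxi1 and Atp6v1b1 were low on all 4 arrays. The part of epithelial content in the differences was not tested.

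Of 3 measured genes in a list of other distal epididymal genes, 2 were at least 2-fold lower on WT-HF than on WT-LF, 0 on KO-1 and 1 on KO-2. Over all genes 1.16% were lower on WT-HF, 0.638% on KO-1 and 0.792% on KO-2. Spink8, a Kazal-type protease inhibitor gene, was at 11.30 on the WT-LF array, 6.52 on the WT-HF array, 11.68 on KO-1 and 9.63 on KO-2, and Cd52, a surface antigen gene of both epididymis and leukocytes, at 11.47, 10.14, 12.35 and 11.02. Both were highest on KO-1, where Adam7 and Cuzd1 were low, while the third, Pate4, was low on all arrays at 4.14, 4.45, 3.89 and 3.61 and highest on WT-HF. The summed intensity of 9 sperm and testis genes was 1240, 1123, 2382 and 713 on the 4 arrays in that order, and that of 8 smooth muscle genes 5289, 5054, 10965 and 4766. The smooth muscle sum is led by Acta2 (11.71 to 12.04), and over the 8 genes the median difference from WT-LF was −0.71 on WT-HF with 2 at least 2-fold lower, 1.24 on KO-1 with 5 higher, and −0.71 on KO-2 with 2 lower. On KO-1 0.84% of all genes were at least 2-fold higher. The 8 seminal vesicle and prostate genes summed to 530, 1109, 330 and 153, with Svs2 at 7.40, 8.59, 5.95 and 3.94. The sum was highest on WT-HF, where 3 of the 8 were at least 2-fold higher than on WT-LF (1.63% of all genes), while Pbsn and Sbp, chosen after their values were seen, were low on all arrays and highest on KO-1. The 9 adipocyte genes summed to between 59178 and 61020 on every array. Whether any of these cell types had a part in the values of the 10 genes was not tested.

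**Figure D4:**
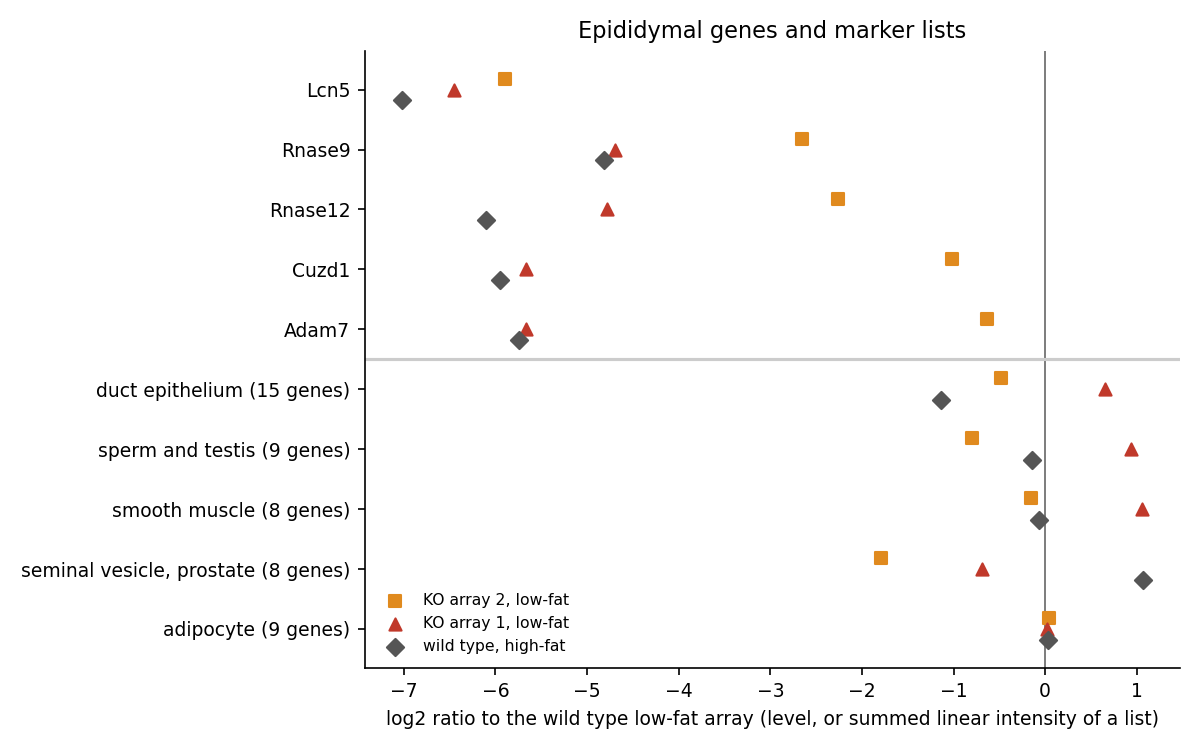
Log2 ratio (horizontal axis) to the WT-LF array of the 5 epididymal genes with signal (top, 1 probe set each) and of the summed linear intensity of 5 marker lists (bottom), for KO-2, KO-1 and the WT-HF array. The 5 genes lie at −4.69 or below on KO-1, where duct epithelium (0.66), sperm and testis (0.94) and smooth muscle (1.05) lie above 0, and the adipocyte list stays within 0.04 of 0.

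Among 12 measured genes of a list of other proximal epididymal genes, 4 were at least 2-fold lower on the WT-HF array than on the WT-LF array, 3 on KO-1 and 1 on KO-2. Over all genes 1.16% were lower on WT-HF, 0.638% on KO-1 and 0.792% on KO-2. Lcn12, an epididymal lipocalin gene outside the stretch from Lcn15 to Lcn9, followed Adam7 and Cuzd1, at 7.32, 4.55, 5.05 and 6.90 on the WT-LF array, the WT-HF array, KO-1 and KO-2. Crisp4, which encodes a sperm-binding secretory protein and is named after its values were seen, did so too, at 5.92, 3.37, 3.60 and 6.03. All values of Crisp4 were low. Spag11a, a defensin-like epididymal gene, followed Lcn5 instead, at 6.99, 5.15, 5.26 and 5.30. Etv5, an ETS factor gene that the initial segment needs, stayed between 6.62 and 6.91. Over the 12 genes the median difference from the WT-LF array was −0.16 on the WT-HF array, −0.09 on KO-1 and −0.15 on KO-2, against 0.01, −0.07 and −0.01 over all genes. Several of these genes, Lcn12 among them, also stand in the family lists that follow. Limma called 0 of the 4 tested in KO against wild type.

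In the wider gene families of the 10, few genes differed by 2-fold. The share of all genes at least 2-fold lower than on WT-LF was 1.16% on WT-HF, 0.638% on KO-1 and 0.792% on KO-2, and the share higher was 1.63%, 0.84% and 1.23%. Of 17 other lipocalin family genes measured, 2 were at least 2-fold lower on the WT-HF array than on the low-fat array (Lcn12 and the prostaglandin D synthase gene Ptgds, named after its values were seen), 2 on KO-1 and 1 on KO-2, while 1 was higher on WT-HF and 1 on KO-2. Ptgds was at 8.28 on the WT-LF array, 6.14 on the WT-HF array, 5.67 on KO-1 and 8.41 on KO-2. Rbp4, the retinol carrier secreted by liver and fat, was at 12.55 to 12.87 and Orm1, an acute phase lipocalin, at 11.79 to 12.17, while Lcn2, a siderophore-binding lipocalin of inflammation, was at 9.76 on KO-2 against 7.81 to 8.37 elsewhere. Of 11 other ribonuclease A genes, 1, Rnase13, was at least 2-fold lower on each of the 3 arrays. It was named after its values were seen and was low throughout, at 6.21 on WT-LF, 3.89 on WT-HF, 4.12 on KO-1 and 3.93 on KO-2. Another 1, Rnase1, also low throughout, was higher on KO-1. Of 13 other cystatin genes 0 were lower or higher by 2-fold, with the ubiquitous Cst3 at 13.15 to 13.24. The same held for 0 of 7 other glutathione peroxidase genes, with Gpx3, a secreted form, at 11.79 to 12.26. Of 28 other ADAM genes 0 were lower, 2 were higher on WT-HF and 1 on KO-2. Adam8, named after its values were seen, was higher on both, at 6.36 on WT-LF, 9.45 on WT-HF, 6.21 on KO-1 and 9.12 on KO-2. Adam9, a widely expressed sheddase gene, was at 10.01 to 10.81.

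Among 6 measured regulators of epididymal genes, 0 differed by 2-fold on any of the 3 arrays, with the glucocorticoid receptor gene Nr3c1 at 9.06 to 9.44 and Foxa1, a forkhead factor gene, at 4.98 to 5.64. For the lists of other cells, 0 of 10 macrophage genes were at least 2-fold lower and 6 were higher on the WT-HF array, 0 higher on KO-1 and 5 on KO-2, with Cd68 at 10.09, 11.61, 9.53 and 11.28 on the WT-LF array, the WT-HF array, KO-1 and KO-2. Over all genes 1.63% were higher on WT-HF, 0.84% on KO-1 and 1.23% on KO-2. The median difference of the 10 macrophage genes from WT-LF was 1.24 on WT-HF, −0.45 on KO-1 and 0.91 on KO-2. Cd163, named after its values were seen, was not higher on WT-HF (8.06 against 8.28 on WT-LF). Of 6 mesothelial genes 3 were at least 2-fold lower on KO-1, where 0.638% of all genes were, and 0 on the others. Limma called 0 genes of any of the 16 lists in KO against wild type, in which 0.0443% of tested genes were called lower and 51 lower and 41 higher had an unadjusted p under 0.05.

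The genes most like the 10 were sought by the distance, over the 4 arrays, between a gene's log2 profile centred on its own mean and the mean centred profile of the 10. The 8 nearest were the beta-defensin gene Defb40 (distance 0.21), the calcium pump gene Atp2b3 (0.38), the protease inhibitor gene Wfdc8 (0.51), Tmed6 (0.58), the endothelial lipase gene Lipg (0.65), Lcn12 (0.71), the beta-defensin gene Defb28 (0.72) and an immunoglobulin kappa variable gene (0.73). The mean profile mixes genes with and without signal, so the nearest gene outside the 10 was also taken for single genes, a step added after their values were seen. Among genes outside the 10, nearest to Lcn5 was the epididymal protein gene Epp13 (0.38), to Rnase9 the beta-defensin gene Defb23 (0.98), to Rnase12 and to Cuzd1 Defb39 (1.04 and 0.85), and to Adam7 Defb26 (0.90), at 8.84 on the WT-LF array, 3.96 on the WT-HF array, 4.40 on KO-1 and 8.81 on KO-2. Within the 5 genes with signal, Adam7 and Cuzd1 were nearest to each other (0.32) and Adam7 and Lcn5 were farthest apart (4.07), with Rnase9 and Rnase12 in between (1.26).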

How the data were processed

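Total RNA of pooled epididymal fat was hybridized to 4 whole-transcript arrays. The authors deposited 1 linear intensity per probe set and array, which the submitters' processing notes tie to RMA (background correction, quantile normalization and probe summarization) and R 2.15.0. A genome build for the probe sets is not given in the sources used here. Here log2 of the deposited intensity was taken with no further normalization, since the values (5.71 to 20092) were linear. No detection calls were used, and precision is limited by having 4 arrays.

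Of 35556 probe sets, the 21218 with 1 gene symbol in the platform annotation were used, the one with the highest mean per gene, giving 18820 genes. Comparisons with 1 array a group were described by size at 2-fold. Limma 3.58.1 in R 4.3.3, tested on simulated data, was fitted with a mean per group and eBayes, Benjamini-Hochberg adjustment and a threshold of 0.05, over 11292 genes, those whose mean over the arrays reached the 40th percentile, 5.45 in log2. It had 1 residual degree of freedom and 4.62 prior ones. Figures used matplotlib 3.10.9 in Python 3.11.15.

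The genes, their 16 companion lists and the tests were chosen with earlier results of these data known. Named genes are the 10, Cd1d1, up to 4 genes of each list by mean level, list genes next to the 10 in the genome and the 8 genes of nearest profile, and others are stated to be chosen after their values were seen. All 10 Entrez IDs matched the RefSeq gene table of GRCm38.p6. Promoter windows exist for 8 of them in the RefSeq table used, without Adam7 and Cst11. Alternatives covered scaling, probe set rule, an intensity offset, the fold, the filter, the variance model, the threshold and each KO array left out.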

Additional observations from a re-analysis of the deposited data

How the results depend on the processing

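Of 36 counts of genes recomputed under alternatives, 34 stayed within 1.5 times the main count. The exceptions were the limma calls in KO against WT-LF, 1 gene (Lcn5) in the main analysis, which became 0 of 10 with no filter on low signal, and 0 of 1 with the filter at the 60th percentile, which only Cuzd1 passed. Averaging over probe sets could not change a fold count or a single difference, since each gene has 1 probe set. The limma count in KO against WT-HF was 0 in the main analysis and under every alternative. The 34 are thus not a measure of stability by themselves. The count lower on both KO arrays was 4 without KO-1 and 5 without KO-2, and it ran from 3 to 5 over the other settings. Limma cannot be fitted with a KO array left out, since no residual degree of freedom remains, so only differences are given there. Of 140 single differences recomputed, 0 reversed and 6 were marked as moved, all on log2(intensity + 16). That offset shrinks differences from low levels, and under it the Lcn5 difference between the diets was −6.18 and that of KO against WT-LF −5.64. Differences with a KO array left out were not among the 6, yet some shifted widely. The Adam7 difference from WT-LF was −3.15 with both KO arrays, −0.63 without KO-1 and −5.67 without KO-2. For Cuzd1 these values were −3.34, −1.01 and −5.67. The count of 6 thus does not show that the KO differences hold whichever KO array is kept. No paired analysis was possible because the wild type groups have 1 array each and carry no replicate number in the labels.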
